A study of Homo sapiens with 6 samples.

Results

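Receptor tyrosine kinases outside the ERBB family and the insulin and IGF receptors were followed through the peak lists of an ATAC-seq study. INSRR, a relative of the insulin receptor, was part of the set. The assay marks accessible chromatin by where a Tn5 transposase can insert adapters. The set was a list of 47 autosomal genes, taken from 19111 autosomal protein-coding genes of GENCODE release 44. The rule names the genes and uses no measured value, but they were chosen with earlier results of these data known. The cells were MCF-10A, a non-tumorigenic human breast epithelial line, as parental cells with wild-type PIK3CA (WT) or as knock-in lines with PIK3CA E545K or PIK3CA H1047R, substitutions in the catalytic subunit of phosphoinositide 3-kinase. EGF was present at 20 ng/ml in the maintenance medium of the parental cells and left out for both knock-in lines. For the final 24 h every genotype was moved to 1% charcoal-stripped serum with EGF at 0.2 ng/ml, and all media held insulin, hydrocortisone and cholera toxin. Genotype and maintenance without EGF cannot be told apart in this design, and the sources used here do not say whether each knock-in line was 1 clone.

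Receptor tyrosine kinases are cell surface proteins in which a ligand outside the cell brings receptors together, so that their kinase domains phosphorylate tyrosines on each other. Adaptors such as GRB2, SHC1 and GAB1 dock on these tyrosines and pass the signal to RAS and to phosphoinositide 3-kinase, the enzyme altered in the knock-in lines. In breast epithelium EPHA2, DDR1 and MET bind ephrins, collagen and hepatocyte growth factor, whereas VEGF, TIE, CSF1 and FLT3 receptors are known mainly from endothelial or blood cells.

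Each genotype had 2 samples, 6 in all, and 1 deposited peak list called on both samples together. The lists held 98910 peaks in WT, 89416 in E545K and 106747 in H1047R, on the autosomes only. They give no value per sample and no depth, so every difference here describes 3 lists without a replicate check and no test was made. A lower area could come from less open chromatin in each cell, from fewer cells with open chromatin or from the unknown depth of a list, and these cannot be told apart. Over whole lists the median area was 651 in WT, 624 in E545K and 639 in H1047R. The labelled cell type was read from promoters of marker genes. Peaks in all lists were found at 11 of 12 basal and 9 of 10 epithelial markers, with none at the canonical TP63 and KRT19 starts. They were also found at 6 of 8 luminal markers, where 65.5% of all genes had one, so presence alone does not set basal apart from luminal cells. Where a promoter peak was present, the median area at basal markers was 6756 in WT, 6308 in E545K and 5527 in H1047R. At luminal markers it was 1347, 1241 and 1552, and over all genes 3508, 3138 and 3638. In all lists, peaks stood at 2 of 10 endothelial, 3 of 10 fibroblast and mural, 1 of 10 immune and 1 of 9 neural markers, and PECAM1, PTPRC and SOX10 had no promoter peak in any list.

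A promoter counted as holding a peak when any peak overlapped the canonical transcript start or the 1 kb on either side of it. Of the 47 receptors, 29 held a promoter peak in all lists, 3 in some lists and 15 in none. Over all genes, 65.5% held one in all lists, 4.55% in some and 30% in none, so the receptors' shares were near the background. By list, the receptors with a promoter peak numbered 30 in WT, 31 in E545K and 30 in H1047R, where 67.4%, 67.7% and 68.1% of all genes had one. The promoters of all 4 FGF receptors, all 5 ephrin type B receptors, both MET family receptors and both WNT coreceptor pseudokinases held a peak in each list. Neither TIE receptor did in any list, nor did NTRK3, nor FLT1 among the VEGF receptors.

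Peak size is given as the authors' area, what lies under the curve of the peak caller from one edge of the peak to the other, which grows with both width and height and is not a read count. The collagen receptor gene DDR1 (hg38 chromosome 6, 30876421 to 30900156) had the largest promoter peak of the set, measuring 12951 in the WT list, 13686 in the E545K list and 15691 in the H1047R list. Among WT peaks it lay at percentile 99.8 by area. EPHA2, the main Eph receptor of epithelial cells, was second in WT with 8529 and in E545K with 9199, and had 6116 in H1047R, below EPHB6 and EPHB3. EPHB3, which binds B-type ephrins, had 5991, 6219 and 6179 in the same order. MET, the receptor for hepatocyte growth factor, had 5795 in WT, 7068 in E545K and 5756 in H1047R. AXL, a receptor for GAS6, had 5465 in WT but 3662 in E545K and 3556 in H1047R. Over these 5 promoters the order of the lists was not shared, since AXL was largest in WT, EPHA2 and MET in E545K and DDR1 in H1047R.

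The smallest promoter peaks shared by all lists belonged to KIT, the stem cell factor receptor, which had 306, 253 and 361 in WT, E545K and H1047R. EPHA3, an ephrin A receptor, had 347 in WT, 538 in E545K and 832 in H1047R, where it was largest. KDR, the main VEGF receptor of blood vessels, had 660, 745 and 972. INSRR, a receptor related to the insulin receptor, had 429, 808 and 469. EPHB6, an Eph receptor without kinase activity, had 4834 in WT, 2767 in E545K and 6260 in H1047R. Where a promoter peak was present, the median area over the receptors was 2384 in WT, 2059 in E545K and 2392 in H1047R, against 3508, 3138 and 3638 over all genes. The receptors' median lay below that of all genes in each list.

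The other promoters lay between these extremes. Among FGF receptors, FGFR2, whose epithelial form binds FGF7 and FGF10, had areas of 3809, 3951 and 4145 in WT, E545K and H1047R, and FGFR1 had 1500, 1432 and 1303. MST1R, the receptor for macrophage stimulating protein, had 2736, 2059 and 2582, and TYRO3, which like AXL binds GAS6, had 1412, 1063 and 1482. EPHA4 had 4873, 4291 and 4841, EPHB4 had 2175, 3312 and 2456, and EPHB2 had 1587, 1789 and 1468. The pseudokinase RYK, a WNT coreceptor, had 2603, 2713 and 3528, and PTK7, another, had 2330, 1935 and 2278. RET, the GDNF family receptor, had 1275, 1277 and 1022, and ALK had 1545, 1725 and 1689. E545K was the lowest of the lists at EPHA4, MST1R, TYRO3 and PTK7 and the highest at EPHB4, EPHB2 and ALK, so neither knock-in stood on one side of WT over these promoters.

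**Figure D1:**
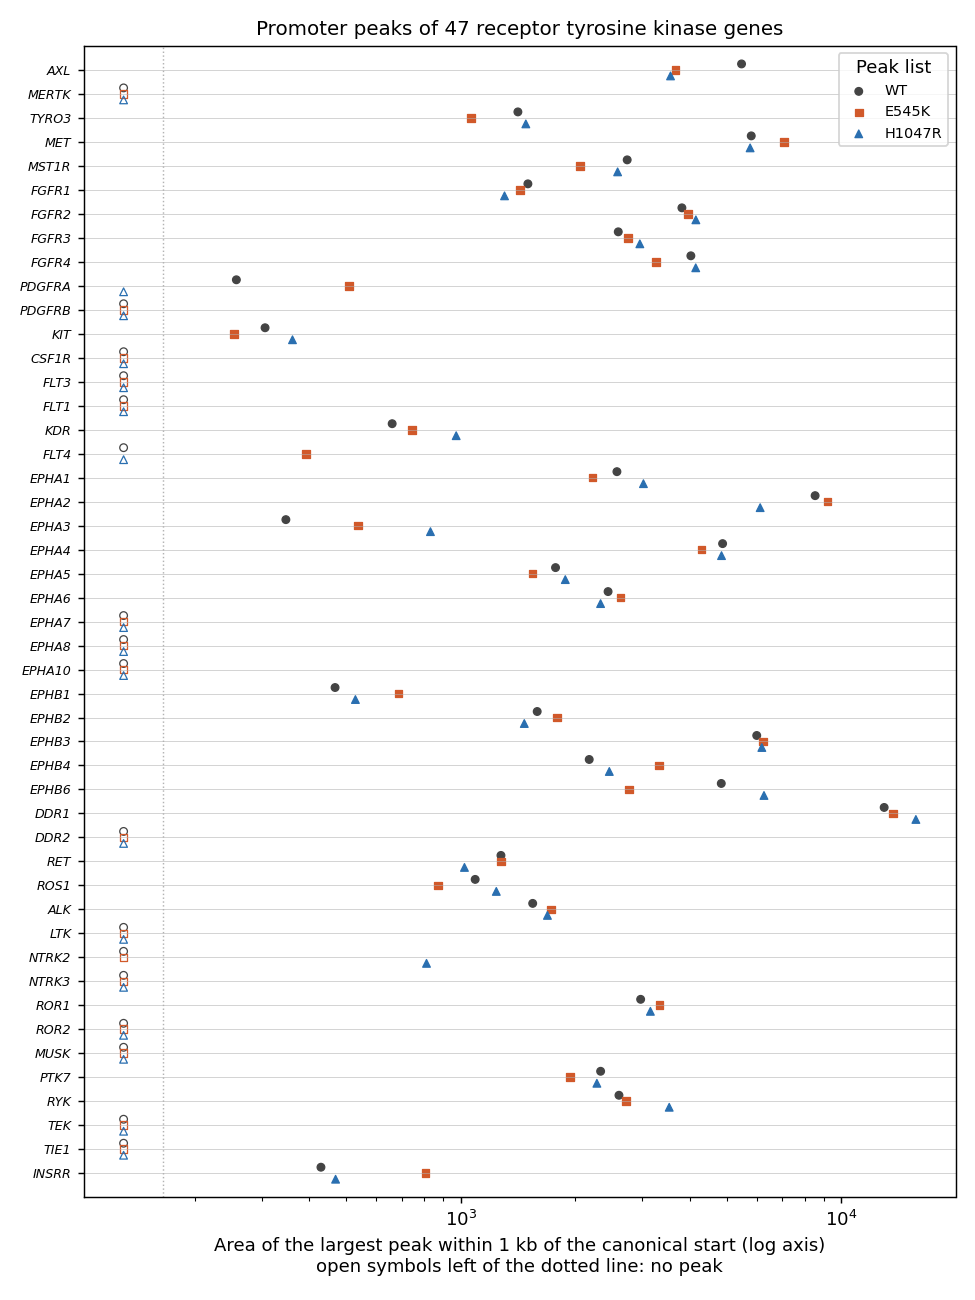
Area of the largest promoter peak of each of the 47 receptor genes (horizontal, log axis) in the WT, E545K and H1047R lists, with open symbols for no peak. The 3 symbols of a gene sit close together for most genes, DDR1 and EPHA2 lie furthest right, and PDGFRA, FLT4 and NTRK2 have filled symbols in some lists only.

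The 15 receptors without a promoter peak were MERTK, PDGFRB, CSF1R, FLT3, FLT1, EPHA7, EPHA8, EPHA10, DDR2, LTK, NTRK3, ROR2, MUSK, TEK and TIE1. EPHA7 and EPHA8 had no peak in any list even within 20 kb of the gene. Others held peaks away from the start: TEK, the angiopoietin receptor, had 12 WT peaks within the gene, and ROR2, a WNT5A receptor, had 15. The window at the canonical start does not cover other starts of these genes. Counting any annotated start, 32 receptors held a promoter peak in all lists, 3 in some and 12 in none.

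PDGFRA, FLT4 and NTRK2 were the 3 receptors whose promoter peak was missing from at least 1 list but not from all. Of all genes, 1.72% had a promoter peak in E545K but none in WT, and 1.42% showed the reverse. For H1047R set against WT these shares were 1.78% and 1.03%. Between the knock-ins, 1.35% had one in E545K but none in H1047R, and 1.81% the reverse. NTRK2, the receptor for brain-derived neurotrophic factor, had a promoter peak in H1047R alone, with an area of 813 over 803 bp (chromosome 9, 84668180 to 84668982). That peak overlapped narrower peaks of WT, with an area of 624, and of E545K, with an area of 445, which ended short of the promoter window. The lists thus differed at NTRK2 in peak width at the edge of the window and not in the presence of a peak.

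PDGFRA, the alpha receptor for platelet-derived growth factors, had a promoter peak in WT with an area of 257 and in E545K with 508, and none in H1047R. These peaks lay upstream and only reached the edge of the window. Every list held a larger peak inside the gene. Its area was 2428 in WT, 1829 in H1047R, and 1410 and 361 in E545K, where it was split into 2 peaks. The larger peak overlaps the start of a second RefSeq transcript of PDGFRA, 4667 bp inside the canonical start. The 250 bases before that start (RefSeq, GRCh38.p14, plus strand) are shown because the largest peak of PDGFRA in each list lies there and not at the canonical start. Capitals mark an E-box (CAGCTG) next to a CCAAT box (CCAAT), both sought on both strands.
PDGFRA second start, chr4:54233710-54233959: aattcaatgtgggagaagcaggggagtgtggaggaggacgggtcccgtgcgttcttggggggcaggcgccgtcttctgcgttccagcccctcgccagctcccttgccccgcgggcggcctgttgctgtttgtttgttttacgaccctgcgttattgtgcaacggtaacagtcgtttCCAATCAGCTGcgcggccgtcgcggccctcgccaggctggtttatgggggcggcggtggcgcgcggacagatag
An E-box is found in 13.8% and a CCAAT box in 32.7% of 20584 promoters of that length.

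FLT4, the VEGFC receptor known from lymphatic vessels, had a promoter peak in E545K alone, with an area of 392. This low, wide peak belonged to a broader pattern over the whole gene. The share of the FLT4 gene body under a peak was 9.03% in WT, 67.6% in E545K and 10.6% in H1047R. FGFR4, a receptor for FGF19, had 11.7% in WT, 58.2% in E545K and 11.9% in H1047R. FGFR3, the third FGF receptor gene, had 6.50% in WT, 42.0% in E545K and 6.85% in H1047R. In each of these genes E545K stood apart while WT and H1047R lay close together.

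Among all genes, FLT4 ranked 46, FGFR4 ranked 85 and FGFR3 ranked 156 of 19111 by the coverage difference of E545K minus WT. A difference of at least 10 percentage points, a threshold chosen after the values were seen, was reached by 5 receptors in the direction of E545K over WT: FLT4, FGFR4, FGFR3, INSRR and EPHB3. The background share was 4.06% of genes, so 5 of 47 was above it, though no test was made. INSRR was covered for 4.99%, 16.1% and 3.78% in WT, E545K and H1047R, and EPHB3 had 22.0%, 32.9% and 25.3%. In the direction of WT over E545K no receptor reached 10 points, with a background of 0.743%. The same held for H1047R over WT (background 1.4%) and for H1047R over E545K (background 1.12%). E545K exceeded H1047R by 10 points at 6 receptors, against a background of 4.18%, and WT exceeded H1047R at EPHA1 alone, against 1.52%. These comparisons share lists and are not independent of each other. The median coverage of the receptors was 3.44% in WT, 4.37% in E545K and 3.78% in H1047R, against 3.46%, 3.32% and 3.77% over all genes.

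**Figure D2:**
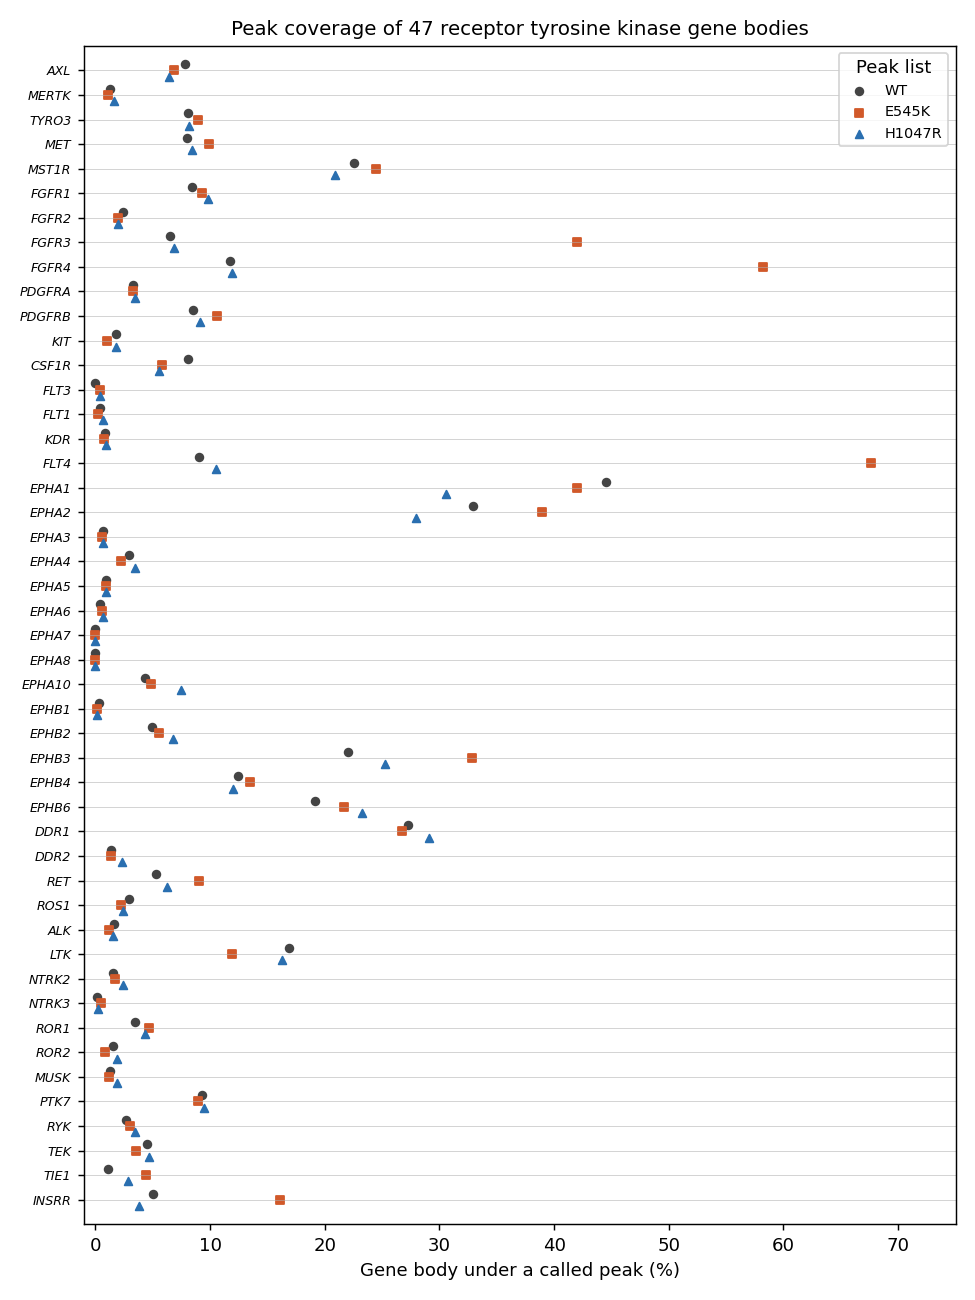
Share of each receptor gene body lying under a called peak (horizontal, percent) in the WT, E545K and H1047R lists. E545K squares of FLT4 (67.6%), FGFR4 (58.2%) and FGFR3 (42.0%) lie far right of the WT and H1047R symbols of those genes, and for most other receptors the 3 symbols nearly coincide.

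At FLT4, FGFR3 and FGFR4 the extra E545K coverage came from wide peaks with low summits, whereas the 4 E545K peaks in EPHB3 had a median summit −log10 p of 6.50. FLT4 (ENSG00000037280.16, hg38 chromosome 5, 180601506 to 180649624, minus strand) held 17 E545K peaks in the gene body, with a median width of 1147 bp and a median summit −log10 p of 2.28. WT had 4 peaks there and H1047R 7. The widest E545K peak, of 6766 bp, spanned a region in which WT had 2 peaks and H1047R 3, with summed areas of 3833 in E545K, 827 in WT and 876 in H1047R. FGFR3 (ENSG00000068078.20, chromosome 4, 1793293 to 1808872, plus strand) had 4 E545K peaks in its body against 1 in each other list. FGFR4 (ENSG00000160867.15, chromosome 5, 177086905 to 177098144, plus strand) had 5 against 2 in each other list. At the promoters of both FGF receptor genes every list held a strong peak, with areas of 2592, 2752 and 2954 for FGFR3 and 4022, 3261 and 4142 for FGFR4 in WT, E545K and H1047R.

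**Figure D3:**
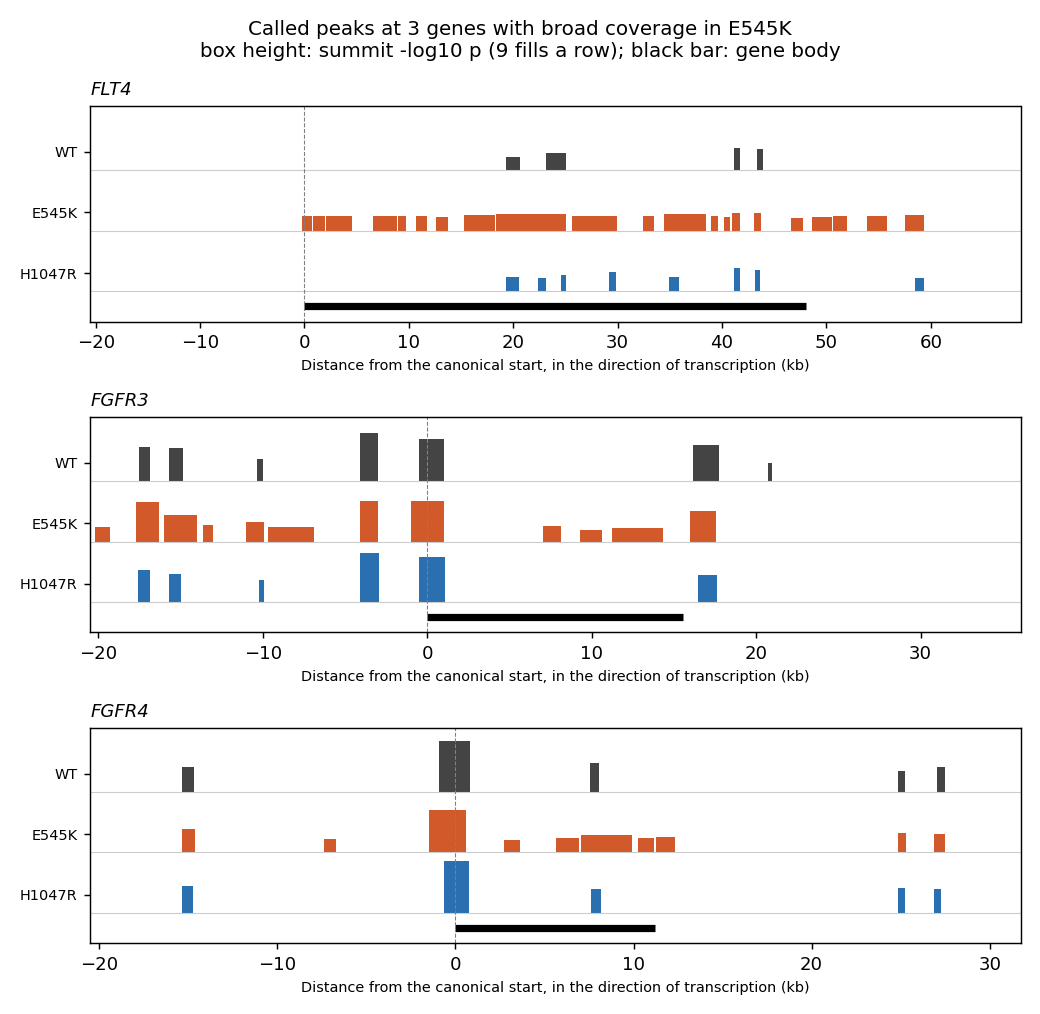
Called peaks at FLT4, FGFR3 and FGFR4 in the 3 lists, by distance from the canonical start in kb, with box height giving the summit −log10 p. E545K has runs of low, wide boxes across the bodies of all 3 genes, while WT and H1047R have a few narrow boxes and, at FGFR3 and FGFR4, a tall promoter box as E545K does.

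Base composition and position in the chromosome moved with this result. The gene bodies of FLT4, FGFR3 and FGFR4 have GC contents of 60.2%, 65.8% and 60.1%, and with EPHB3 they are the 4 receptors in the highest of 10 equal classes of genes by GC. They are also the only 3 receptors within 5 Mb of a chromosome end, at 0.889, 1.79 and 4.45 Mb. Of all genes in that class and within 5 Mb of an end, 41.2% (340 of 825) had at least 10 points more coverage in E545K than in WT, and so had 14.2% (154 of 1087) of genes in that class further from the ends. Without regard to GC the shares were 15.9% within 5 Mb of an end and 2.39% further away. Counting only peaks with a summit −log10 p of at least 3, the E545K minus WT difference was −2.33 points at FLT4, −6.18 at FGFR4, 0.237 at FGFR3 and 0.845 at INSRR. It was 9.60 points at EPHB3, near its 10.9 over all peaks, so no receptor reached 10. Counting only peaks with an area of at least 500, it was 46.4 at FLT4, 19.2 at FGFR4, 19.9 at FGFR3, 0.845 at INSRR and 13.5 at EPHB3. The part of base composition, chromosome position and low summits in the E545K difference was not tested.

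FLT4 also carried the strongest peak of the set held by E545K alone. It lies in an intron of FLT4 and has an area of 1426 and a summit −log10 p of 2.38. A peak of E545K alone upstream of FGFR3, with an area of 655, is shown beside it, a choice made after its values were seen, so that sequence from 2 of the broad genes can be read. Both are hg38, plus strand, and capitals mark an E-box (CAGCTG) and a GATA site (AGATAA), sought on both strands.
FLT4 intron, E545K alone, chr5:180633754-180634053: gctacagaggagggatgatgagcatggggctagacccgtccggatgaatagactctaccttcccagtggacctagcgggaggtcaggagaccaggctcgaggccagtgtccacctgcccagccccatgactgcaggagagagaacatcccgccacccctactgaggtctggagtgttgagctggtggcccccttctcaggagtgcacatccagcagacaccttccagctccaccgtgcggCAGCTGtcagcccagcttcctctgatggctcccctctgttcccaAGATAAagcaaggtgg
FGFR3 upstream, E545K alone, chr4:1785642-1785941: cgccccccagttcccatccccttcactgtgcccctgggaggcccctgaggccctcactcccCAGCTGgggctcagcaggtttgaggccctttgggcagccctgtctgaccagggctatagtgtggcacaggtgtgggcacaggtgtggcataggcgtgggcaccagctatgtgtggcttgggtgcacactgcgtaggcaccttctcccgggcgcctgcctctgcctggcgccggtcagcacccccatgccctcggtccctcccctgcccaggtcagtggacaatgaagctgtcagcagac
The GC content of these windows is 60.7% and 66.7%, against a median of 49% over all E545K peaks. An E-box is found in 19.4% and a GATA site in 12.7% of E545K peak windows of this length, and neither window holds an AP-1 site (TGANTCA), which 35.3% of them hold.

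EPHA1, an Eph receptor of epithelial cells (chromosome 7, 143390289 to 143408856, minus strand), was the receptor at which WT exceeded H1047R by 10 points in coverage. Its body lay under peaks for 44.6% in WT, 42.0% in E545K and 30.5% in H1047R. The H1047R minus WT difference, −14.0 points, was −20.4 with summits of at least 3, with areas of at least 500 and with lists of equal length, and −36.4 with summits at or above the WT median. The value of −36.4 rests on a WT peak of 11054 bp whose summit −log10 p of 4.26 lies just above that median of 4.25. The difference came from 1 region of 11128 bp over the end of the gene (143385927 to 143397054), held as 1 peak in WT, 2 in E545K and 6 in H1047R. The summed area over that region was 10963 in WT, 11903 in E545K and 4214 in H1047R. The EPHA1 promoter did not follow it, with areas of 2571, 2219 and 3019. EPHA2 had 32.9% covered in WT, 39.0% in E545K and 27.9% in H1047R, and its region over the promoter, of 6612 bp, had summed areas of 8742, 9199 and 6945. At both ephrin receptors H1047R was the lowest list in gene body coverage and in the summed area of these regions. With 20 kb on either side of EPHA2 included, coverage was 24.4% in WT, 29.5% in E545K and 25.6% in H1047R, so WT was lowest there.

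Peaks within a receptor gene or 20 kb on either side numbered 395 in WT, 392 in E545K and 448 in H1047R, each counted once where windows overlap, as those of PDGFRB and CSF1R do. About 14.4% of the WT peaks had their midpoint in another protein-coding gene, and a peak is named here for the receptor in whose window it lies. A peak was called strong when its area was in the upper 50% of its list, and it had a partner when a peak of another list overlapped it by at least 1 bp. Of 186 strong E545K peaks at the receptors, 10 had no WT partner, or 5.38% (Wilson 95% interval 2.95 to 9.61, for counting error only), against 2.55% of all strong E545K peaks. FLT4 held 5 of these and FGFR3 held 2, while EPHA6, ROR1 and MET held 1 each, so that 5 of 47 receptors had such a peak, against 5.73% of all genes. The receptor genes are longer, with a median of 83.5 kb against 27.9 kb over all genes, and a longer window can hold more peaks. Shares of genes with such a peak, here and below, were not corrected for length. Peaks of 1 gene share their surroundings and are not independent, so the interval is too narrow. By summit height in place of area, 1 strong E545K peak lacked a WT partner. In the reverse direction 2 of 204 strong WT peaks had no E545K partner, 0.980% against 2.13% in the list, at 2 receptors (4.6% of all genes).

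Of 227 strong H1047R peaks, 8 had no WT partner, 3.52% (1.80 to 6.80) against 2.95% in the list, and these lay at 6 receptors, where 7.03% of all genes had such a peak. A single strong WT peak of 204 had no H1047R partner, 0.490% against 1.4%, and 2.74% of all genes had one. Between the knock-ins, 6 strong E545K peaks had no H1047R partner, 3.23% against 1.6%, all but 1 of them at FLT4 and FGFR3, and 3.87% of all genes had one. Strong H1047R peaks without an E545K partner numbered 6, 2.64% against 2.87%, at 6 receptors, beside 7.69% of all genes. For H1047R peaks the share at the receptors lay near that of the list in both directions.

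Without the limit on area, 70 of 392 E545K peaks at the receptors had no WT partner, 17.9% (14.4 to 22.0) against 12.6% in the list, and 69 of 395 WT peaks had no E545K partner, 17.5% against 20.3%. H1047R peaks without a WT partner were 85 of 448, 19.0% against 17.9%, and WT peaks without an H1047R partner 32 of 395, 8.10% against 11%. E545K peaks without an H1047R partner were 49 of 392, 12.5% against 9.14%, and the reverse were 97 of 448, 21.7% against 23.6%. The E545K share was above its list in both comparisons, and FLT4, FGFR3 and FGFR4 together held 29 of the 70 and 26 of the 49.

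**Figure D4:**
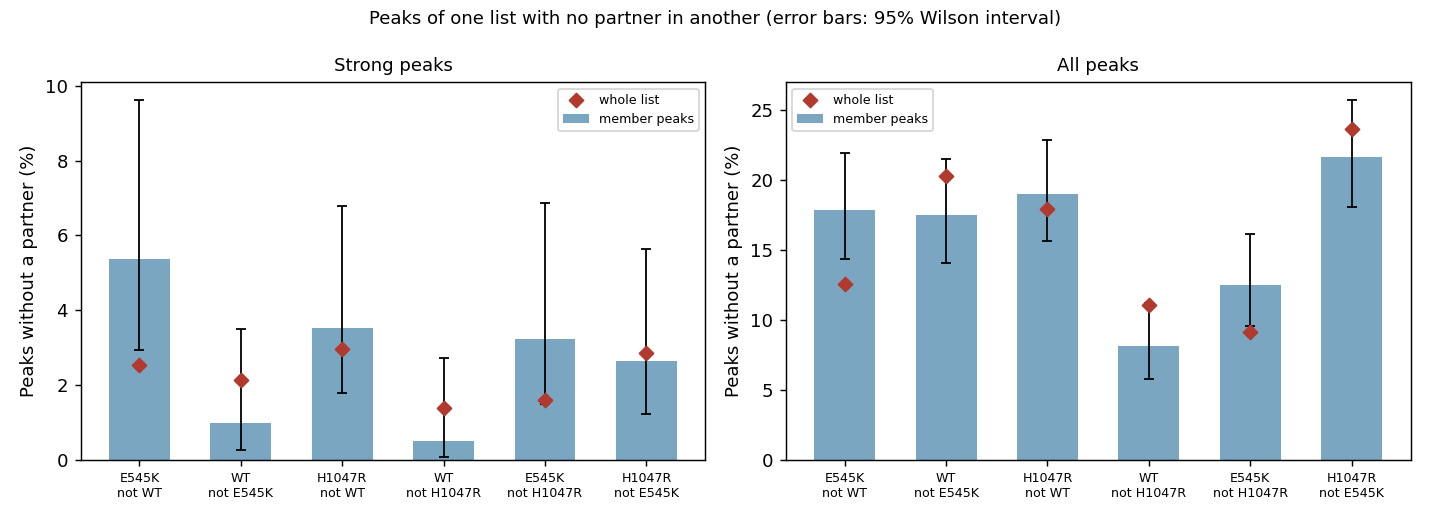
Share of peaks at the receptors without a partner in another list (bars, percent, with Wilson 95% intervals) for strong peaks and for all peaks, with a diamond for the share over the whole list. The diamond lies below the interval for E545K peaks without a WT partner in both panels, and for all E545K peaks without an H1047R partner.

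Touching peaks from the 3 lists were joined into 120615 regions, of which 500 lay at the receptors. All lists held 302 of the 500, or 60.4%, against 61.2% of all regions. E545K alone held 40 (8.0% against 4.52%), H1047R alone held 52 (10.4% against 11%) and WT alone held 24 (4.8% against 6.73%). Both knock-ins without WT held 30 (6.0% against 4.62%), WT with H1047R held 45 (9.0% against 9.76%) and WT with E545K held 7 (1.4% against 2.13%).

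Leaving out 2 wide E545K regions of FLT4, the site of greatest area held by both knock-ins and not by WT lay in an intron of ROR1, a WNT5A receptor of the ROR family (ENSG00000185483.13, chromosome 1, 63774017 to 64181498, plus strand). Its area was 1456 in H1047R and 1095 in E545K, with summit −log10 p of 5.43 and 4.48, and WT had no peak there. A second ROR1 intron peak, with an area of 656, was also strong in H1047R and without a WT partner. ROR1 had 23 peaks in its window in WT, 29 in E545K and 30 in H1047R, and its promoter area was 2968, 3326 and 3148. At the NTRK2 gene (ENSG00000148053.18, chromosome 9, 84668375 to 85095751, plus strand) an intron peak had an area of 1143 in H1047R and 431 in E545K, with none in WT. Another, 177 kb inside the start, had 907 in H1047R and 236 in E545K, with none in WT. NTRK2 had 19 window peaks in WT, 20 in E545K and 27 in H1047R, of which 4, 3 and 13 were strong. At ROR1 both knock-ins had more peaks than WT, and at NTRK2 the larger number of strong peaks was in H1047R.

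The windows of 300 bases at the summits of both sites (hg38, plus strand) are shown as examples of sites held by both knock-ins and not by WT. That of ROR1 has the largest area of those that touch no UTR, and that of NTRK2 was chosen after its values were seen. Capitals mark a CRE (TGACGTCA) and CCAAT boxes (CCAAT), together with the letters GGAATG for TEAD factors and AGATAA for GATA factors, all sought on both strands.
ROR1 intron, both knock-ins, chr1:64072555-64072854: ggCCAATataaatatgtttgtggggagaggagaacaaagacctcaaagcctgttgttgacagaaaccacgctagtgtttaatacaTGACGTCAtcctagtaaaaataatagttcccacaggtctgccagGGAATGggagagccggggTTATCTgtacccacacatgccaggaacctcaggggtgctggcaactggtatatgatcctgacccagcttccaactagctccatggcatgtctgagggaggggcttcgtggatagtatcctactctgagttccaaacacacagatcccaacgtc
NTRK2 intron, both knock-ins, chr9:84856264-84856563: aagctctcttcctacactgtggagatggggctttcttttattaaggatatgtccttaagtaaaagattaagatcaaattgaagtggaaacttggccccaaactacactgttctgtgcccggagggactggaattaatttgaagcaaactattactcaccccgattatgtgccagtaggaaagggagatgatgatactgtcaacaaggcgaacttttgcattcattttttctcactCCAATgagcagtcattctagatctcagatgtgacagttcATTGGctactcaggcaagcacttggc
The CRE is found in 0.723% of H1047R peak windows of this length and in 0.849% of E545K windows. TEAD sites are found in 21.8%, GATA sites in 13.3% and CCAAT boxes in 33.2% of H1047R windows. Neither sequence holds the AP-1 letters, which 39.7% of H1047R windows hold.

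ROR2, the other WNT5A receptor of the family (ENSG00000169071.15, chromosome 9, 91563091 to 91950228, minus strand), went the other way in E545K. It had 15 window peaks in WT, 9 in E545K and 18 in H1047R. Of these, 6 were strong in WT, none in E545K and 7 in H1047R. The largest area of a peak in the gene was 1522 in WT, 498 in E545K and 981 in H1047R. An intron peak with an area of 688 in WT was shared with H1047R and had no partner in E545K. A peak beyond the 3′ end of ROR2, with an area of 704, was held by H1047R alone.

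The strongest receptor peaks held by WT alone and by H1047R alone, among those whose window touches no annotated UTR, both lay at ROR2 and are shown for that reason (hg38, plus strand). Capitals mark TEAD sites (GGAATG) and, in the H1047R sequence, an AP-1 site (TGANTCA), sought on both strands.
ROR2 intron, WT alone, chr9:91797528-91797827: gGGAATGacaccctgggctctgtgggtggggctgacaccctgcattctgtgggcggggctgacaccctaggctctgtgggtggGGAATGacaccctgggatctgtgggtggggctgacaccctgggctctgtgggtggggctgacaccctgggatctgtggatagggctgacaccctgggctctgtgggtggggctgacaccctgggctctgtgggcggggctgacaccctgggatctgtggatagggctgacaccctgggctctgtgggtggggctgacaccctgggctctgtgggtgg
ROR2 downstream, H1047R alone, chr9:91546655-91546954: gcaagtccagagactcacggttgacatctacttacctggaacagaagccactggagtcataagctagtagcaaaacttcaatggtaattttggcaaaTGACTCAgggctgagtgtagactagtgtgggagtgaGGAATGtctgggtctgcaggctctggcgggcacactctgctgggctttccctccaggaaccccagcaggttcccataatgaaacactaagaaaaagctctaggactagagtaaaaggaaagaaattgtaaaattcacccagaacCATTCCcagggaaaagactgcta
The WT sequence is a tandem repeat with a GC content of 66.7%, in which the word ggctgacaccct stands 9 times, and its peak had an area of 473. The H1047R sequence has a GC content of 47.3%. TEAD sites are found in 23.1% of WT and 21.8% of H1047R windows.

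**Figure D5:**
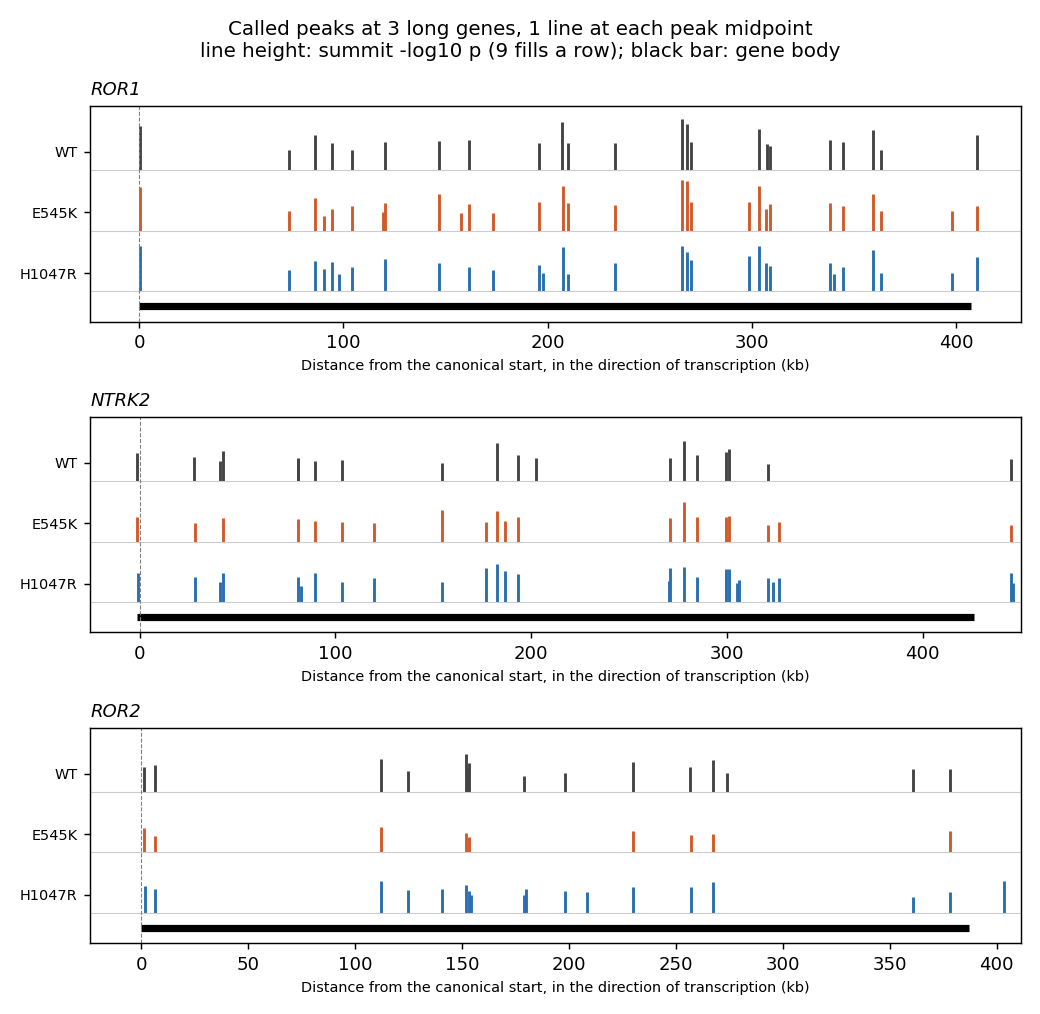
Called peaks at ROR1, NTRK2 and ROR2, with 1 line at each peak midpoint by distance from the canonical start in kb and line height giving the summit −log10 p. Lines in both knock-in rows and not in WT stand near 299 kb of ROR1 and 187 kb of NTRK2, and ROR2 has 9 lines in E545K against 15 in WT, where neighbouring lines overlap.

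At MET (chromosome 7, 116672196 to 116798377, plus strand) the number of peaks in the window was 21 in WT, 22 in E545K and 22 in H1047R. Single sites differed at MET and at other receptors, and sites of the latter follow. Beyond the 3′ end of MERTK, a receptor that serves the uptake of dying cells, H1047R had a peak with an area of 970 where E545K had 316 and WT none. A neighbouring MERTK peak had 806 in H1047R and 325 in WT and none in E545K. Upstream of AXL, within CYP2S1, a site had 686 in WT and 290 in H1047R and none in E545K. EPHA6, an Eph receptor known from the nervous system, had an intron peak of 1257 in E545K and peaks of 242 and 264 in H1047R at the same place, with none in WT. A second EPHA6 intron peak had 769 in H1047R and no partner in E545K. At ROS1, a receptor for NELL2, an intron peak had 712 in H1047R, 482 in WT and none in E545K. At each of these sites the list without a peak stood against 2 lists that held one.

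Peaks without a partner differed in shape and sequence between directions. The 70 E545K peaks at the receptors without a WT partner had an AP-1 site within 150 bp of the summit in 11 cases (15.7%), against 35.3% of all E545K peaks. FLT4, FGFR3 and FGFR4 supplied 29 of the 70, with a median width of 1155 bp, a median GC content of 66% and an AP-1 site in 1. At the other receptors the remaining 41 had a median width of 406 bp and an AP-1 site in 10 (24.4%). The 85 H1047R peaks without a WT partner had an AP-1 site in 37 (43.5%), against 39.7% of all H1047R peaks. The 69 WT peaks without an E545K partner had one in 29 (42.0%) and the 32 without an H1047R partner in 9 (28.1%), against 37.3% of all WT peaks. Among the 49 E545K peaks without an H1047R partner it stood in 4 (8.16%). The 97 H1047R peaks without an E545K partner had one in 49 (50.5%). A match describes the letters only and is not a bound site.

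Genes that work with the receptors were taken from 4 lists: ligands, coreceptors, adaptors with proximal effectors, and negative regulators. Promoters of 35 of 59 ligand genes held a peak in every list, 3 in some and 21 in none. Of 15 coreceptors the counts were 7, 2 and 6, of 41 adaptors and effectors 33, 4 and 4, and of 20 negative regulators 18, 1 and 1. Beside these stand 65.5% of all genes in all lists, 4.55% in some and 30% in none. FGF2, a ligand of FGF receptors, had a small promoter peak in both knock-ins, with areas of 413 in E545K and 271 in H1047R, and none in WT. NGFR, the neurotrophin coreceptor, had 375 in E545K and 468 in H1047R and none in WT within the window. The E545K peak of NGFR overlapped a WT peak that ended short of the window. GRB10, an adaptor that dampens insulin receptor signalling, had 375 in E545K and 282 in H1047R and none in WT.

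SHC3, an adaptor known from neurons, had a peak reaching the promoter window in H1047R alone, with an area of 1998. That peak had a partner in WT and in E545K, which ended short of the window. DOK7, the adaptor of MUSK, had 2820 in WT and 2543 in E545K and none within the window in H1047R. Both DOK7 peaks had an H1047R partner outside the window, so a peak was present in every list. FGF12 had 520 in WT and 503 in H1047R and none in E545K. In E545K alone, DOK1 had 354 and GFRA1, a RET coreceptor, had 383. In H1047R alone, FGF23 had 216 and SH3GL2 had 323. Of these areas, those of SHC3 and DOK7 were the largest, but at both genes the lists differed in peak extent and not in the presence of a peak. GAB2, an adaptor that recruits phosphoinositide 3-kinase, had 2 strong WT peaks and 2 strong H1047R peaks without a partner in E545K. VAV3 had 2 strong H1047R peaks, and FGF14 2 strong WT peaks, without a partner in E545K. Over the 4 lists together, 13 of 135 genes had a strong WT peak without an E545K partner (4.6% of all genes) and 10 had a strong H1047R peak without one (7.69% of all genes). In the other directions 6 genes had a strong E545K peak without a WT partner, 7 a strong H1047R peak without a WT partner, 4 a strong WT peak without an H1047R partner and 3 a strong E545K peak without an H1047R partner, where the shares of all genes were 5.73%, 7.03%, 2.74% and 3.87%. The median length of the 135 genes was 49.7 kb, against 27.9 kb over all genes, and these shares were not corrected for length.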

How the data were processed

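ATAC-seq of MCF-10A cells was taken from 3 pooled peak lists, each called by the authors on the 2 samples of a genotype. Per the submitters' processing notes, the tools were Trim Galore 0.4.0, cutadapt, FastQC, SAMtools and Genrich 0.6.1 with hg38. For the aligner, the tool was not given in the sources used here. The deposited signal value is the area under a peak, with a smallest value of 200 in each list. The deposited −log10 p value is that of the summit, and no adjusted value was given. Both were used as the authors' values, to order and select peaks within a list. Areas were also set side by side between lists, with no scaling for depth or for differences between whole lists. Depth is unknown, samples have no values of their own, and no test was made.

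Computations used Python 3.11.15, numpy 2.4.6, pandas 2.3.3, scipy 1.17.1, matplotlib 3.10.9 and pysam 0.24.0. Gene models were GENCODE release 44. Wilson 95% intervals cover counting error only. Counts were checked against bedtools 2.31.1, with 0 differences over 7, and tested by removing 2000 WT peaks at random, of which 2000 came out as unpartnered, as did 0 of the 96910 left in place. The RefSeq promoter table held 43 of the 47 receptors.

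Members, gene lists and markers were chosen with earlier results of these data known. Named receptors were those whose promoter peak was missing from some lists, with at least 2 strong unpartnered peaks in a pair of lists, with the 5 largest WT promoter areas, coverages or coverage differences, or with the 3 strongest unpartnered peaks of a pair; other receptors are named by role. Pathway genes were named for a promoter peak missing from some lists or for 2 strong unpartnered peaks. Alternatives were other windows, starts, overlaps and peak thresholds and lists of equal length. The coverage threshold and 2 limits on summit height were added after seeing the data. A receptor site that the naming rule takes is not reported here.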

Additional observations from a re-analysis of the deposited data

How the results depend on the processing

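Across 162 alternative values, 72 values of the comparisons kept within 1.5 times the main count and 42 did not. Of 48 coverage differences of single genes, 36 moved by at most 10 points, 9 moved further, and 3 called differences changed sign. No paired analysis was possible because each genotype has 1 pooled list, and for the same reason no replicate could be left out. Strong peaks without a partner are given in the order E545K not WT, WT not E545K, H1047R not WT, WT not H1047R, E545K not H1047R and H1047R not E545K, with main counts of 10, 2, 8, 1, 6 and 6. They numbered 21, 4, 13, 3, 17 and 13 when a partner had to overlap 50% of the peak, 70, 69, 85, 32, 49 and 97 over all peaks, and 2, 0, 1, 0, 0 and 0 over the upper 25% of each list. By summit height the E545K peaks without a WT or an H1047R partner fell to 1 each, and the WT peaks without an E545K partner to 1. Among peaks with an area of at least 500 there were 5 E545K not WT, 4 H1047R not WT and 0 WT not H1047R. In lists of equal length there were 0 WT not E545K, 5 H1047R not WT and 1 H1047R not E545K, and in the gene body alone 1 WT not E545K and 5 H1047R not WT. For regions, an area of at least 500 left 170 in all lists, 15 in WT alone, 22 in E545K alone and 10 in both knock-ins. Lists of equal length gave 31 in H1047R alone, 13 in WT with E545K and 21 in WT with H1047R, and the gene body alone gave 15 in WT alone. Promoters with a peak in some lists only numbered 5 at an area of at least 500. With summits at or above the WT median, or of at least 3, receptors with 10 points more coverage numbered 0 for E545K over WT and 2 for E545K over H1047R. FGFR4 then reversed to −6.18 points under both limits, and FLT4 to −2.33 at a limit of 3 and to 0 at the WT median. Differences under 10 points of H1047R minus WT also changed sign: FGFR4 from 0.187 to −4.99 at an area of at least 500 and at the WT median, FLT4 from 1.52 to −3.09 in lists of equal length and −0.297 at a limit of 3, and INSRR from −1.21 to 3.78 at the WT median. The cause of these changes was not tested.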

Other observations

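The surroundings of MET differed between the lists more than the gene did. Over the 200 kb on either side of MET, peaks covered 11.7% in WT, 13.3% in E545K and 7.21% in H1047R, while the gene body itself was covered for 7.94%, 9.90% and 8.44%. At FGFR3 the same flanks were covered for 8.25% in WT, 13.7% in E545K and 8.21% in H1047R, and at FLT4 for 4.16%, 6.41% and 4.54%. The flanks of FGFR4 were covered for 3.47%, 4.02% and 3.62%. EPHA7 had no peak in its flanks in any list. These flanks hold other genes, and no replicate bears on the differences.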
